A study of Mus musculus with 20 samples.

Results

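Rpl3l and Rpl3 encode alternative forms of one protein of the large ribosomal subunit, and their transcripts were followed in hearts of mice that lacked Sorbs2. Both genes were taken by name from the deposited tables, 2 of the 18657 genes listed at 6 months and of the 17808 listed at 6 weeks, and they were chosen by their known differences in normalised counts between KO, KO+AAV and WT hearts of these same tables. Their levels and their ratio are therefore a description, and no p-value is given for them. The 20 libraries form 5 groups. At 6 months there were 4 Sorbs2 knockout hearts given the gene back (KO+AAV), 5 knockout hearts (KO) and 5 wild type hearts (WT), and at 6 weeks 3 KO and 3 WT hearts. KO+AAV mice had received AAV9-Tnnt2-Sorbs2, an adeno-associated virus that expresses Sorbs2 from the cardiomyocyte promoter of Tnnt2, on postnatal day 2. The KO and WT mice were untreated, so no KO group received a virus without Sorbs2. The labels do not say in which cells or how the gene was inactivated. Replicates are labelled as separate mice.

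Rpl3 (uL3) sits close to the peptidyl transferase centre of the ribosome and is made in almost all cells. Rpl3l is its paralog, with expression restricted to heart and skeletal muscle, where it takes the place of Rpl3 in part of the ribosomes. In the mouse heart Rpl3l increases after birth while Rpl3 decreases, and loss of Rpl3l in mice is known to be followed by a rise of Rpl3. Sorbs2, the gene that was knocked out, encodes an adaptor protein of the cardiomyocyte Z-disc and the intercalated disc.

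In the GENCODE annotation of mm10, the build named by the labels, Rpl3l lies on the plus strand at chr17:24727820-24736143 and Rpl3 on the minus strand at chr15:80077791-80083406. Each has 10 exons, and the first 9 hold the same number of coding bases in both genes. Over 1209 aligned coding bases the genes were 74.4% identical, with 64.7% to 80.8% identity per exon beyond the start codon's exon. The 60-base coding windows below come from the least and the most different stretches, and show what lets reads of the paralogs be told apart. Capitals mark the bases at which the genes differ, 8 of 60 in exon 5 and 23 of 60 in exon 7.
Rpl3l, exon 5, chr17:24733327-24733386, plus strand: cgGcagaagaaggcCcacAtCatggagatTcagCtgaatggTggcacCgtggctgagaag
Rpl3, exon 5, chr15:80080475-80080534, minus strand: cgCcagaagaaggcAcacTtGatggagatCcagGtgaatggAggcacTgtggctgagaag
Rpl3l, exon 7, chr17:24733923-24733982, plus strand: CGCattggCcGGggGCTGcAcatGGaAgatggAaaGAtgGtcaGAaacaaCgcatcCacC
Rpl3, exon 7, chr15:80078743-80078802, minus strand: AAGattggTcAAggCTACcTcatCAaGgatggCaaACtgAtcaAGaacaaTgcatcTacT
The longest run that both transcripts shared was 22 bases, and 0% of the 50-base words of either were found in the other. Rpl3l shared no such word with any annotated gene. Rpl3 shared 85.6% of its words with 26 other genes, most with the processed copies Rpl3-ps1, Gm5879 and Rpl3-ps2, so its level is uncertain where the counting divided or discarded reads that match a copy. The transcripts are 1375 bases (Rpl3l) and 1351 bases (Rpl3) long, so a ratio of their values per length is nearly the ratio of the values.

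Values are the authors' normalised counts, scaled across the libraries of each table, and the tables of the 2 ages were normalised separately. Totals per library ran from 11359135 to 13670340 at 6 months and from 6705133 to 8240294 at 6 weeks. Sorbs2 was 4696, 5753, 15690 and 17923 in KO+AAV replicates 1 to 4, 1648, 612, 593, 494 and 1755 in KO replicates 1 to 5, and 4562 to 5398 in the WT hearts at 6 months. The 6-week libraries held 276 to 365 (KO) and 1409 to 1990 (WT). Xist was expressed in KO+AAV replicates 1 and 3, in WT replicates 4 and 5 and in no KO library at 6 months, and in 1 of 3 libraries of each group at 6 weeks; the other libraries expressed Y-linked genes. The tissue is labelled left ventricle. The summed atrial markers Sln, Myl7 and Myl4 nevertheless reached 40362 to 71058 in the KO hearts and 39430 to 67452 in the WT hearts of 6 weeks, against at most 59.3 in KO+AAV, 1183 in KO and 130.0 in WT at 6 months. KO replicate 3 was the KO library at 1183. Rpl3l is also expressed in skeletal muscle, and the 9 markers of that tissue summed to 37.2 to 67.8 (KO+AAV), 28.0 to 78.9 (KO) and 31.2 to 85.7 (WT) in the hearts of 6 months. The 6-week sums, over the 8 of these markers listed at that age, were 108 to 189 (KO) and 104 to 139 (WT). The fast myosin genes Myh1, Myh2 and Myh4 among them summed to at most 9.49 in any library. Tnni2, fast skeletal troponin I, averaged 16.7 in KO+AAV and 6.89 in KO, against 21.5 in WT at 6 months. It fell in KO against WT (log2 -1.55, limma adjusted p = 0.0161) but did not pass with sex class as a covariate or among libraries with Y-linked expression alone, with adjusted p up to 0.126. Of the 9 markers, 3 were abundant enough to test at 6 months, and only Tnni2 passed in that comparison. The markers differed in direction. Tnnt3 averaged 16.1 in KO+AAV and 20.7 in KO, against 10.2 in WT. Actn3 (5.09 in KO, 1.78 in WT) and Pvalb (4.33 and 1.57) were also higher in KO, while Mylpf was lower (8.16 and 12.5). The part of skeletal muscle RNA in the Rpl3l values was not tested.

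Rpl3l was 3.48-fold lower and Rpl3 1.86-fold higher in KO than in WT hearts at 6 months. Rpl3l, the muscle form, had 1819, 1812, 2032, 1343 and 1488 normalised counts in KO replicates 1 to 5, against 7171, 5024, 4988, 6114 and 6266 in WT replicates 1 to 5. Every KO library lay below every WT library. The means were 1699 ± 278 in KO and 5913 ± 921 in WT (SD, n = 5 each), a log2 difference of -1.80 ± 0.16 (SE), which ranked 101 from the lowest of 13419 genes. Among those genes 7.29% were lower in KO without overlap of the groups, and 16.3% changed at an adjusted p under 0.05 in either direction.

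Rpl3, the widely expressed form, had 5767, 4177, 3768, 4516 and 6067 normalised counts in KO replicates 1 to 5, against 2128, 2271, 2245, 3249 and 3169 in WT replicates 1 to 5. All KO libraries lay above all WT libraries, and KO replicates 1 and 5, the KO hearts with most Sorbs2 transcript, were the highest. The means were 4859 ± 1007 in KO and 2612 ± 548 in WT (SD, n = 5 each), with a log2 difference of 0.90 ± 0.18 (SE), rank 873 from the highest. In this direction 6.56% of all genes had groups without overlap. The WT libraries with Xist had more Rpl3 (3169 and 3249) than those with Y-linked expression (2128 to 2271). Among libraries with Y-linked expression alone the log2 differences were -1.75 for Rpl3l and 1.11 for Rpl3. The part of sex in the spread among WT libraries was not tested.

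The summed level of both transcripts was closer between the genotypes than either alone. It was 5800 to 7586 in KO and 7233 to 9435 in WT hearts, and KO replicates 1 and 5 overlapped the WT range. Rpl3l made up 26.4% ± 6.17 of the sum in KO and 69.3% ± 4.63 in WT hearts (SD, n = 5 each). The higher value was that of Rpl3 in each KO heart and of Rpl3l in each WT heart, per length as well as by count. Which transcript was more abundant is less certain, because the level of Rpl3 is uncertain where reads match its processed copies.

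**Figure D1:**
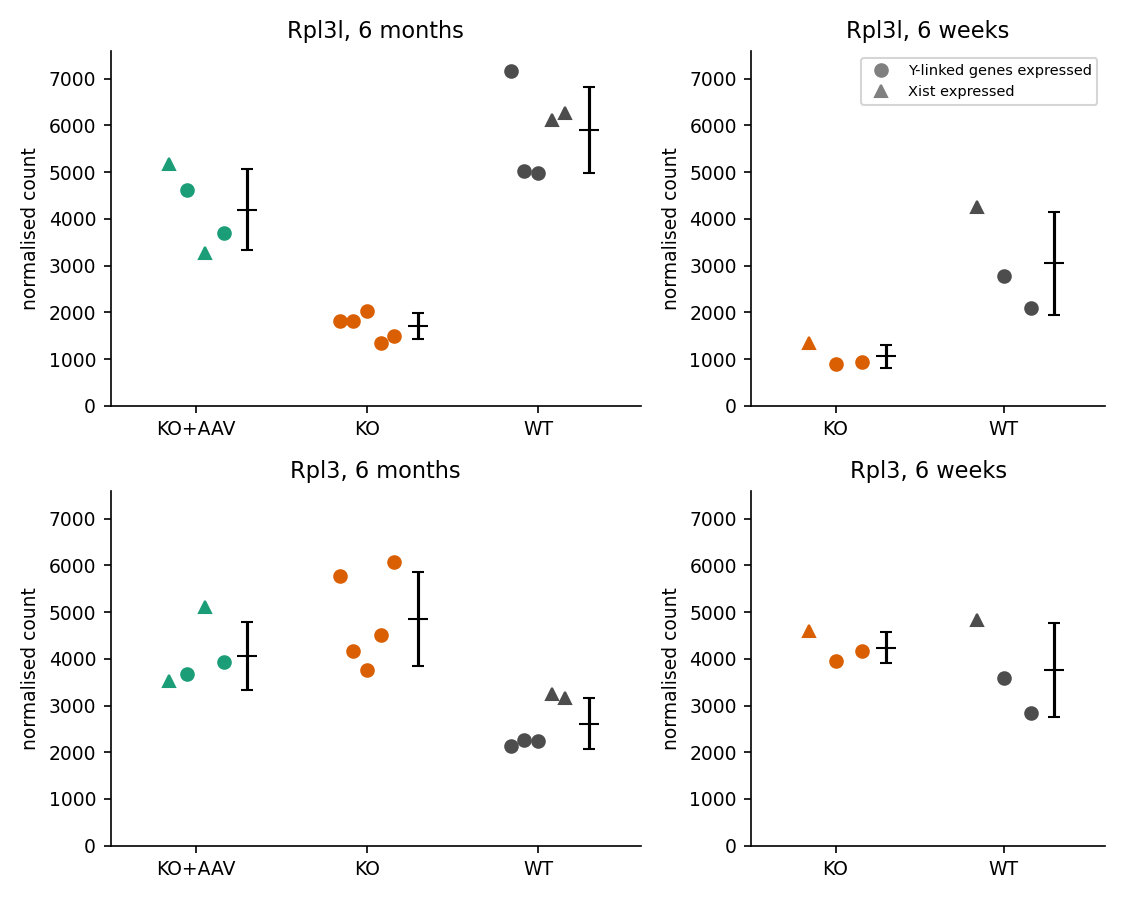
Normalised counts (vertical axes) of Rpl3l (top) and Rpl3 (bottom) per library in KO+AAV, KO and WT hearts at 6 months and in KO and WT hearts at 6 weeks. Each symbol is 1 library, circles with Y-linked and triangles with Xist expression, and bars give the mean ± SD. At 6 months the KO libraries lie at 1343 to 2032 for Rpl3l, below all others, and above all WT libraries for Rpl3.

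In KO+AAV hearts Rpl3l lay between KO and WT, while Rpl3 stayed within the KO range or just below it. Rpl3l had 5183, 4630, 3266 and 3704 normalised counts in KO+AAV replicates 1 to 4, all above the highest KO library at 2032 and overlapping with the lowest WT libraries at 4988 and 5024 through replicate 1. The mean of 4195 ± 870 in KO+AAV (SD, n = 4) was 2.46-fold higher than in KO (log2 difference 1.30 ± 0.17, SE; rank 159 from the highest). Against WT the log2 difference was -0.50 ± 0.17 (SE). Of the 13419 genes, 6.68% were higher in KO+AAV than in KO without overlap and 11.2% changed at an adjusted p under 0.05 in either direction; 1.33% changed between KO+AAV and WT.

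Rpl3 had 3532, 3672, 5108 and 3924 normalised counts in KO+AAV replicates 1 to 4, a mean of 4059 ± 718 (SD, n = 4). These values overlapped with KO, with a log2 difference of -0.25 ± 0.19 (SE). That difference was -0.43 with sex class as a covariate and -0.04 without KO replicates 1 and 5. They lay above all WT libraries, by 0.64 ± 0.19 on the log2 scale (SE, 1.56-fold higher); 2.73% of all genes were higher in KO+AAV than in WT without overlap. The comparisons of KO+AAV with KO and of KO with WT share the KO libraries, and those of KO+AAV and of KO with WT share the WT libraries. The sum of both transcripts was 7627 to 8714 in KO+AAV hearts, above all KO libraries (5800 to 7586) and within the WT range (7233 to 9435).

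Within the KO+AAV group the libraries differed in both genes. Replicates 1 and 2, with 4696 and 5753 counts of Sorbs2, had a higher value of Rpl3l than of Rpl3. Replicates 3 and 4, with 15690 and 17923 counts of Sorbs2, had a higher value of Rpl3 than of Rpl3l. Each pair has 1 library with Xist and 1 with Y-linked expression. With 4 libraries this is given as values, and whether Sorbs2 dose bears on it was not tested.

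The ratio of Rpl3l to Rpl3 within a library does not depend on the scaling of its table, so it can be set side by side across the 5 groups. It was 1.47, 1.26, 0.639 and 0.944 in KO+AAV replicates 1 to 4 and 0.315, 0.434, 0.539, 0.297 and 0.245 in KO replicates 1 to 5, against 3.37, 2.21, 2.22, 1.88 and 1.98 in WT replicates 1 to 5 at 6 months. The 3 groups did not overlap. At 6 weeks it was 0.292, 0.226 and 0.225 in KO, against 0.880, 0.776 and 0.738 in WT, again without overlap.

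Per length of transcript the mean ratio was 1.06 in KO+AAV, 0.360 in KO and 2.29 in WT at 6 months, close to the ratio of the values.

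By count, the group means were 1.08 ± 0.363 in KO+AAV (n = 4), 0.366 ± 0.119 in KO and 2.33 ± 0.599 in WT at 6 months (n = 5 each), and 0.248 ± 0.0381 in KO and 0.798 ± 0.0737 in WT at 6 weeks (SD, n = 3 each). From highest to lowest the order was WT at 6 months, KO+AAV, WT at 6 weeks, KO at 6 months and KO at 6 weeks. KO+AAV at 6 months and WT at 6 weeks overlapped, as did the KO groups of both ages, so the order of these neighbours is within their spread. The ratio was 6.48-fold lower in KO than in WT at 6 months (log2 -2.70 ± 0.28, SE) and 3.24-fold lower at 6 weeks (log2 -1.69 ± 0.14). In KO+AAV hearts it was 2.92-fold higher than in KO (log2 1.55 ± 0.29) and 2.22-fold lower than in WT hearts (log2 -1.15 ± 0.29). These differences of the ratio were taken on the log2(value + 1) scale.

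Between ages, the WT ratio was 2.86-fold higher at 6 months than at 6 weeks (log2 difference 1.52 ± 0.17, SE), without overlap. The KO ratio was 1.43-fold higher at 6 months (log2 0.52 ± 0.24), with overlap. The difference between these age differences was not tested. Age, the separate tables and the atrial markers in the 6-week libraries go together here and cannot be told apart. KO replicate 3, which held the most atrial marker transcript among the hearts at 6 months, also had the highest KO ratio at 0.539; the part of atrial tissue in it was not tested.

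**Figure D2:**
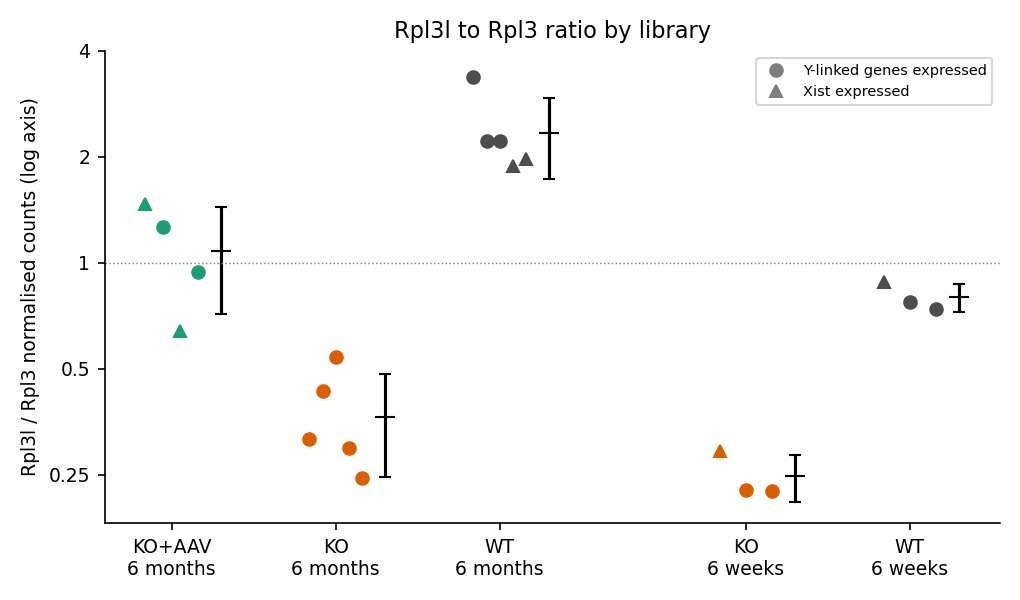
Ratio of Rpl3l to Rpl3 normalised counts per library (vertical log axis) in the 5 groups. Each symbol is 1 library, bars give the mean ± SD, and the dotted line marks equal values; WT hearts at 6 months lie at 1.88 to 3.37, KO hearts of both ages at 0.225 to 0.539.

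At 6 weeks Rpl3l was 2.81-fold lower in KO than in WT hearts, while the normalised counts of Rpl3 overlapped between the genotypes. Rpl3l had 1341, 895 and 937 normalised counts in the KO libraries KO2, KO3 and KO4, against 4260, 2789 and 2095 in the WT libraries WT1, WT6 and WT16 (names as in the table). The highest KO library lay below the lowest WT library. The means were 1058 ± 246 in KO and 3048 ± 1106 in WT (SD, n = 3 each), a log2 difference of -1.49 ± 0.35 (SE), rank 58 from the lowest of 13242 genes; 10.3% of these genes were lower in KO without overlap, and 0.589% changed at an adjusted p under 0.05 in either direction.

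Rpl3 had 4599, 3951 and 4169 normalised counts in the KO libraries KO2, KO3 and KO4, against 4838, 3596 and 2837 in the WT libraries WT1, WT6 and WT16. The KO values lay inside the WT range. The means were 4239 ± 330 in KO and 3757 ± 1010 in WT (SD, n = 3 each), and the log2 difference was 0.21 ± 0.23 (SE). It was 0.02 without WT16 and 0.41 without WT1. In both groups the library with Xist, KO2 and WT1, was highest for both genes. Their ratios were also the highest of their groups, at 0.292 and 0.880.

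**Figure D3:**
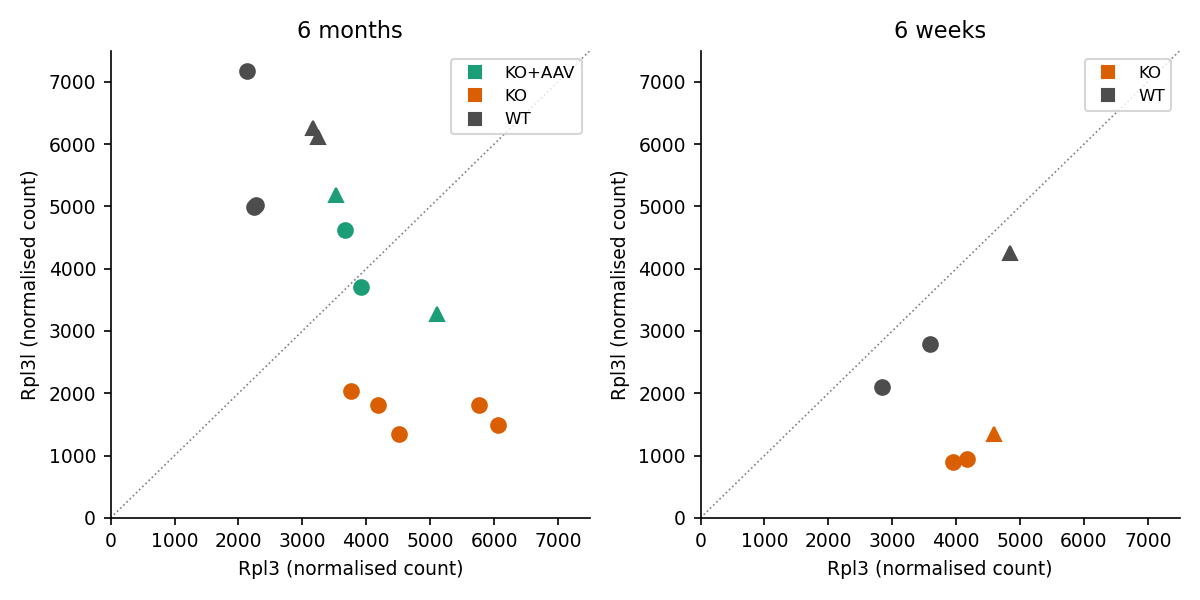
Rpl3l (vertical) against Rpl3 (horizontal), both in normalised counts, for each library at 6 months (left) and 6 weeks (right); the dotted line marks equal values, circles are libraries with Y-linked and triangles with Xist expression. The WT hearts at 6 months lie above the line, the KO hearts of both ages below it, and the KO+AAV hearts on both sides of it.

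Both genes were also set beside other transcripts of the ribosome and of the cardiomyocyte, in measures chosen after the values had been seen. The summed level of 46 other large-subunit protein genes varied within groups, from 188786 to 277017 in KO+AAV, from 140361 to 254747 in KO and from 142265 to 272493 in WT hearts at 6 months, and the 3 groups overlapped. The highest KO sums were those of replicates 1 and 5, the same libraries that were highest for Rpl3.

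Relative to 1000 counts of that sum, Rpl3 was 12.7, 14.01, 23.6 and 20.8 in KO+AAV replicates 1 to 4 and 22.6, 27.5, 26.1, 32.2 and 28.3 in KO replicates 1 to 5, against 11.6, 15.97, 14.9, 14.1 and 11.6 in WT replicates 1 to 5. KO stayed above WT without overlap (log2 1.01 ± 0.13, SE). KO+AAV overlapped with both KO (log2 -0.66 ± 0.23) and WT (log2 0.35 ± 0.24), with replicates 1 and 2 inside the WT range and replicates 3 and 4 above it. Rpl3l on this scale was 15.1 to 19.6 in KO+AAV and 6.94 to 14.1 in KO, against 23.0 to 39.1 in WT hearts at 6 months, and these 3 ranges did not overlap. At 6 weeks Rpl3l was 4.57 to 6.30 in KO and 13.99 to 17.1 in WT per 1000. Rpl3 was 20.2 to 21.6 in KO and 19.0 to 19.4 in WT, a log2 difference of 0.14 ± 0.04 (SE). On this scale neither gene overlapped between KO and WT at 6 weeks. By plain normalised counts, 10.3% of all genes were lower in KO without overlap at that age. The share of all genes without overlap on this scale was not computed at either age.

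RNA of whole tissue was measured, so fewer cardiomyocytes and less transcript per cardiomyocyte cannot be told apart. The summed level of 10 cardiomyocyte markers was 1240550 to 1794210 in KO+AAV and 836585 to 1221490 in KO, against 1448410 to 1694050 in WT hearts at 6 months; 3 of the 10 (Myh6, Tnni3 and Myl3) fell in KO against WT, beside 8.18% of all genes, and 0 to 5 over the alternatives. The summed fibroblast markers were 13879 to 17188 in KO+AAV and 20551 to 32243 in KO, against 11474 to 16219 in WT, and 5 of 8 rose in KO against WT, beside 8.13% of all genes, 3 to 6 over the alternatives. In the 6-week hearts the cardiomyocyte sum was 389436 to 472516 (KO) and 462235 to 680105 (WT), and none of the 10 markers passed the limma test, none with an unadjusted p under 0.05. At that age the fibroblast sum was 22211 to 28083 (KO) and 16825 to 19806 (WT), and the sum of 7 endothelial markers was 8677 to 8927 (KO) and 4913 to 6969 (WT). Neither sum overlapped between the groups. None of the 8 fibroblast and none of the 7 endothelial markers passed, with 5 and 3 at an unadjusted p under 0.05 (limma), and up to 2 endothelial markers passed over the alternatives. The part of these cell types in the 6-week differences of both genes was not tested. Relative to the cardiomyocyte sum, the log2 difference of Rpl3l was -1.12 ± 0.19 (KO against WT at 6 months), 0.76 ± 0.19 (KO+AAV against KO), -0.36 ± 0.11 (KO+AAV against WT) and -1.08 ± 0.17 (KO against WT at 6 weeks). For Rpl3 the values were 1.58 ± 0.26, -0.79 ± 0.30, 0.79 ± 0.26 and 0.61 ± 0.07 in the same order. Each value of Rpl3l kept the sign of the difference in level. For Rpl3 the sign could not change, because the cardiomyocyte sum differed in the opposite direction in each comparison. Myh6 was the largest part of that sum, averaging 265776 in KO and 582261 in WT hearts at 6 months. Ttn went the other way, at 91950 in KO and 69985 in WT. The values relative to the sum are therefore no correction for cardiomyocyte number.

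Few other ribosomal protein genes passed the test. Of 46 other large-subunit genes, 1 rose (Rpl29) and 0 fell in KO against WT at 6 months, beside 8.13% of all genes that rose and 8.18% that fell, with a median log2 change of -0.12 beside 0.00 for all genes, and 2 had an unadjusted p under 0.05 (limma). Under equal library totals the median was 0.04, so no direction is given for the group. Among 32 small-subunit genes 0 rose and 1 fell (Rps2), with a median of -0.13. Rpl3l had the lowest log2 change of the 47 genes formed by itself and the 46 in KO against WT at both ages and in KO+AAV against WT, and the highest in KO+AAV against KO. The next lowest in KO against WT at 6 months was Rpl36 at -0.50 and at 6 weeks Rpl26 at -1.13.

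Rpl3 was second to Rpl29 from the top in KO against WT at 6 months and in KO+AAV against WT, and lowest of its 47 genes in KO+AAV against KO, next to Rpl30 at -0.07. Rpl29, a small protein at the surface of the large subunit, averaged 2835 ± 809 in KO and 1496 ± 635 in WT hearts (SD, n = 5 each; log2 1.00, limma adjusted p = 0.0350), with overlapping groups. It did not pass with sex class as a covariate. It also did not pass without KO replicate 1, KO replicate 5, WT replicate 3 or WT replicate 5, with adjusted p up to 0.196 over the alternatives. Many ribosomal protein genes have processed copies in the genome, and their counts share the uncertainty given for Rpl3.

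In KO+AAV against KO hearts 0 of the 46 large-subunit genes changed, with 7 at an unadjusted p under 0.05 and a median log2 change of 0.44 beside 0.00 for all genes. Without KO replicate 1, 4 rose, and without KO replicates 1 and 5, 14 rose, with a median of 0.72. Of the 32 small-subunit genes 1 rose, Rps2, with a median of 0.42. Without KO replicate 1 that count was 3, and without KO replicates 1 and 5 it was 13, with a median of 0.71. Of all genes, 5.55% rose and 5.69% fell in KO+AAV against KO. Against WT, 0 genes of either list changed in KO+AAV (1 of each at an unadjusted p under 0.05), and 0 of either changed at 6 weeks (3 and 2 at an unadjusted p under 0.05; limma).

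**Figure D4:**
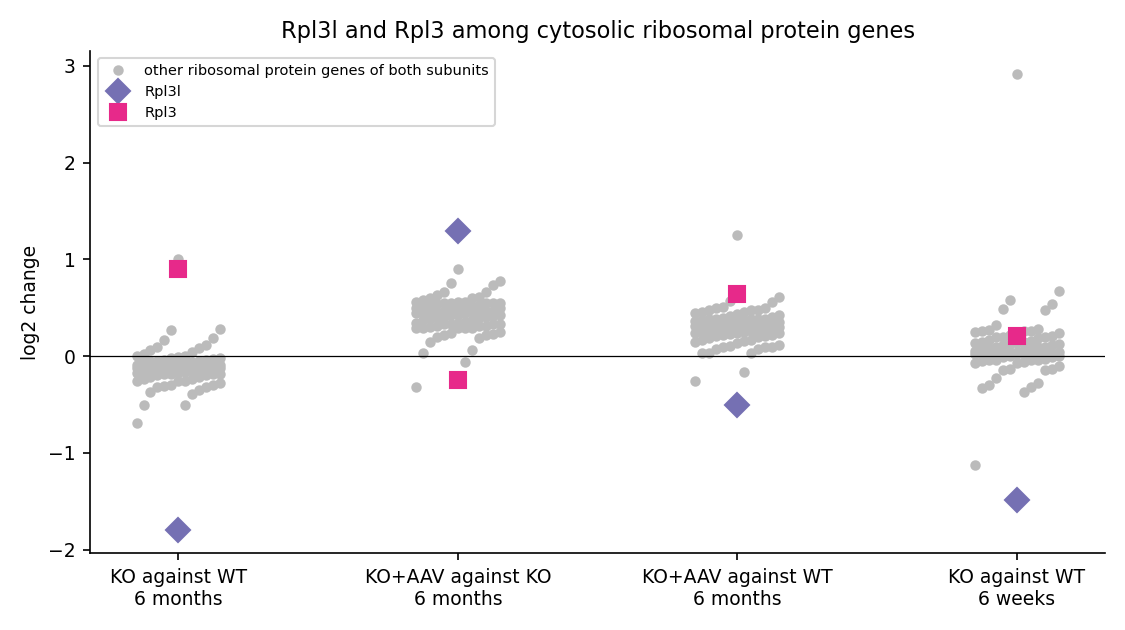
Log2 change (vertical axis) of Rpl3l, Rpl3 and 78 other genes of cytosolic ribosomal proteins in 4 comparisons. Each grey point is 1 gene; Rpl3l is the lowest in KO against WT at -1.80 at 6 months and -1.49 at 6 weeks, and the single grey point near 3 at 6 weeks is Rps27.

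Several other ribosomal proteins also have a paralog. Of 8 such paralogs, 6 were abundant enough to test. Rps4l, a paralog of Rps4x, rose in KO+AAV against KO hearts, at 650, 478, 520 and 447 normalised counts in KO+AAV replicates 1 to 4, against 370, 205, 257, 158 and 295 in KO replicates 1 to 5 (log2 1.07 ± 0.25, SE; limma adjusted p = 0.0134). It did not pass without KO+AAV replicate 1, with sex class as a covariate or among libraries with Y-linked expression alone, with adjusted p up to 0.176. No other paralog passed in any comparison, and in KO against WT 0 of 6 passed at either age, with 1 at an unadjusted p under 0.05 each time.

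Few genes for factors that act on Rpl3 itself or on ribosome assembly passed the test. Grwd1, the chaperone that binds newly made Rpl3, averaged 174 ± 27.3 in KO+AAV (n = 4), 206 ± 17.9 in KO and 194 ± 15.2 in WT hearts at 6 months (SD, n = 5 each). Mettl18, which methylates a histidine of Rpl3, averaged 42.9 ± 9.59 in KO+AAV, 33.1 ± 7.38 in KO and 39.3 ± 9.98 in WT. Neither passed the limma test in any comparison, and neither had an unadjusted p under 0.05.

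Of 34 genes of nucleolar large-subunit assembly, 1 rose in KO against WT at 6 months, beside 8.13% of all genes, and 5 rose under equal library totals. The 1 was Mak16, an assembly factor of the early large subunit, at 296 ± 42.6 in KO and 209 ± 25.1 in WT (SD, n = 5 each; log2 0.50, limma adjusted p = 0.0302). Without KO replicate 1, 2 or 5, or WT replicate 1, 3, 4 or 5, it no longer passed, with adjusted p up to 0.169 over the alternatives. Nor did it pass with sex class as a covariate or among libraries with Y-linked expression alone. Of 13 genes of ribosomal RNA transcription, 1 fell, the RNA polymerase I subunit gene Polr1e (log2 -0.56, limma adjusted p = 0.0382). It did not pass without any 1 of 8 libraries, KO replicates 1, 2, 3 and 5 and WT replicates 2 to 5, with adjusted p up to 0.227 over the alternatives. The call was also lost with sex class as a covariate, among libraries with Y-linked expression alone and with the replicate number as a block. Under equal library totals 1 of the 13 rose and 0 fell, so no direction is given for that list. None of 8 translation elongation factors changed in any of the 4 comparisons, with at most 1 at an unadjusted p under 0.05. Among them, Eef1a2, the muscle and neuron form of elongation factor 1 alpha, had a log2 difference of -0.36 in KO against WT at 6 months (limma adjusted p = 0.347).

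Muscle isoforms of other proteins, each with a widely expressed counterpart as Rpl3l has Rpl3, were lower in part in KO hearts. Of 11 such isoforms, 6 fell and 0 rose in KO against WT at 6 months, a median log2 change of -0.68 beside 0.00 for all genes and 16.3% of all genes changed in either direction. Of all genes, 8.18% fell and 8.13% rose in that comparison. In KO+AAV against KO 7 of the 11 rose and 0 fell, with a median of 0.89, beside 5.55% of all genes that rose and 5.69% that fell. Against WT none of the 11 changed in KO+AAV, with 1 at an unadjusted p under 0.05, and none at 6 weeks, with 2 at an unadjusted p under 0.05 (limma). Over the alternatives 3 to 6 of the 11 fell and 0 or 1 rose in KO against WT, and 1 to 7 rose and 0 or 1 fell in KO+AAV against KO.

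Eno3, the muscle enolase of glycolysis, had 25758, 17543, 20562 and 20205 normalised counts in KO+AAV replicates 1 to 4 and 6932, 11394, 12146, 8487 and 5868 in KO replicates 1 to 5, against 34242, 25912, 27900, 28013 and 31252 in WT replicates 1 to 5. The 3 groups did not overlap. It fell in KO against WT (log2 -1.76, limma adjusted p = 2.67e-05) and rose in KO+AAV against KO (log2 1.27, adjusted p = 0.00221). Ckm, the muscle creatine kinase, averaged 34273 ± 3598 in KO+AAV (n = 4), 15267 ± 4469 in KO and 43939 ± 6683 in WT (SD, n = 5 each), and fell in KO (log2 -1.57, limma adjusted p = 0.000108). Slc25a4, the heart and muscle ATP/ADP carrier, and Cox7a1, a muscle subunit of cytochrome c oxidase, fell in KO by 0.89 and 1.06 on the log2 scale. Of the 11 counterparts, 1 rose in KO against WT, Pfkp, the platelet-type phosphofructokinase (1383 ± 151 in KO, 805 ± 179 in WT, SD, n = 5 each; log2 0.80, limma adjusted p = 0.00355), and 1 fell, Slc25a5 (log2 -0.41, adjusted p = 0.0252).

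As log2 ratios of the values without a pseudocount, Rpl3l to Rpl3 was set beside those 11 pairs as a description. In KO against WT at 6 months it differed by -2.70, while 10 of the 11 pairs were lower and 1 higher, from -1.76 (Eno3 to Eno1) to 0.90 (Phka1 to Phka2) with a median of -0.54. Its members differed in opposite directions, -1.80 for Rpl3l and 0.90 for Rpl3, as did Pfkm (-0.55) and Pfkp (0.80). For Eno3 (-1.76) and Ckm (-1.57) the counterparts Eno1 (-0.00) and Ckb (0.14) were near 0. In KO+AAV against KO the Rpl3l to Rpl3 ratio differed by 1.55, within the range of the other pairs from -0.68 (Phka1 to Phka2) to 2.07 (Eno3 to Eno1), whose median was 0.75.

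Against WT, the other pairs in KO+AAV hearts lay between -0.71 (Ckm to Ckb) and 0.34 (Pgam2 to Pgam1), with a median of 0.20, and all 11 overlapped between KO+AAV and WT. The Rpl3l to Rpl3 ratio differed by -1.15 without overlap. At 6 weeks it differed by -1.70 in KO against WT, beside a range of -1.32 (Cox8b to Cox8a) to 0.18 for the 11 others.

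**Figure D5:**
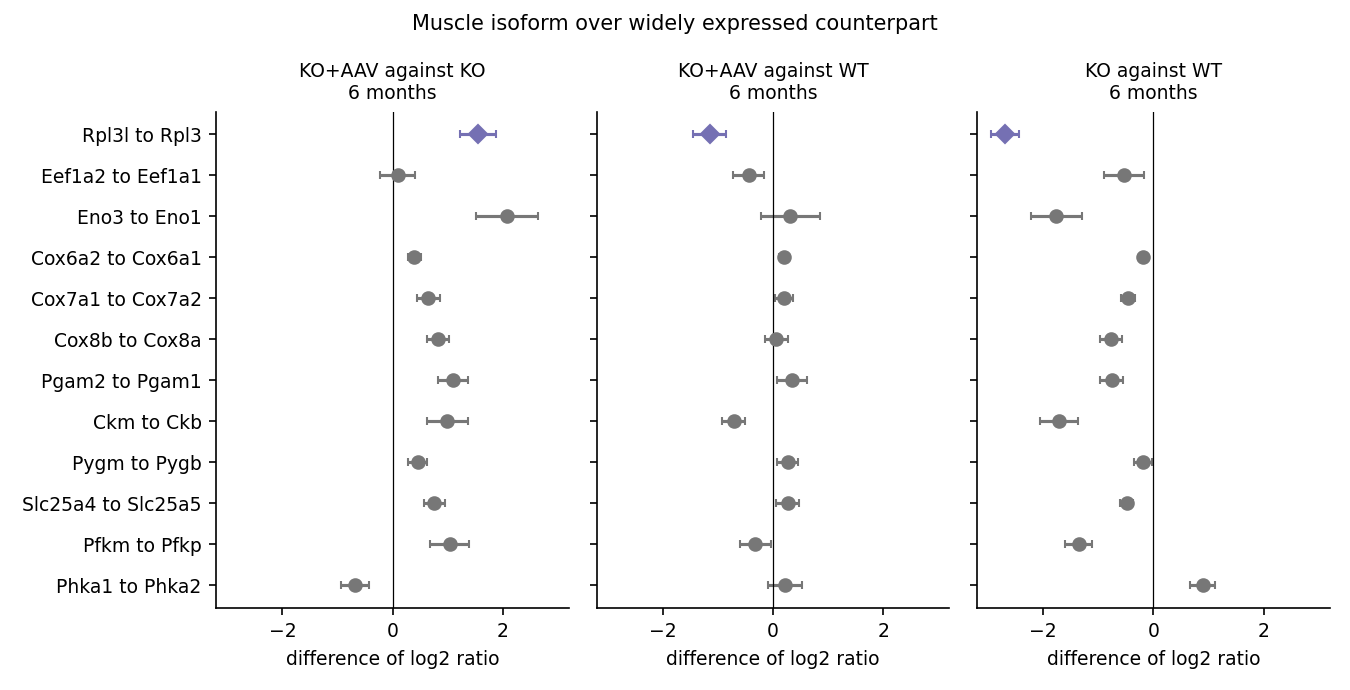
Difference of the log2 ratio of a muscle isoform to its widely expressed counterpart (horizontal axes, bars are standard errors) for Rpl3l to Rpl3 and 11 other pairs in 3 comparisons at 6 months. Rpl3l to Rpl3 is the leftmost pair in KO against WT at -2.70 and in KO+AAV against WT at -1.15.

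The genes next to Rpl3l on chromosome 17 include another ribosomal protein gene. Rps2, of the small subunit, lies 5898 bases below the start of Rpl3l, Ndufb10, a subunit of respiratory complex I, 3402 bases below it, and Msrb1, a selenoprotein that reduces oxidised methionine, 449 bases beyond its end. Exons of no other gene overlap those of Rpl3l in the annotation. All 3 fell in KO against WT at 6 months, where 16.3% of all genes changed. Rps2 had 18432, 13229, 14369 and 12965 normalised counts in KO+AAV replicates 1 to 4 and 11121, 9857, 9548, 8744 and 11437 in KO replicates 1 to 5, against 18121, 13058, 14311, 17302 and 19784 in WT replicates 1 to 5.

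For Rps2 the KO libraries were below all others, and KO+AAV overlapped with WT. The log2 change was -0.69 in KO against WT (limma adjusted p = 0.00561) and 0.53 in KO+AAV against KO (adjusted p = 0.0464); the second call was lost in 16 of 27 alternatives, with adjusted p up to 0.298. Ndufb10 averaged 11260 in KO+AAV and 5669 in KO, against 9304 in WT (KO against WT log2 -0.69, limma adjusted p = 0.0172; KO+AAV against KO log2 0.96, adjusted p = 0.00623). Msrb1 averaged 1279 in KO+AAV and 1001 in KO, against 1733 in WT (log2 -0.77, limma adjusted p = 0.00266 in KO against WT; log2 0.34, adjusted p = 0.173 in KO+AAV against KO). At 6 weeks none of the 3 passed (adjusted p = 0.963, 0.542 and 0.574, limma), with log2 changes of -0.04, -0.32 and -0.25 beside -1.49 for Rpl3l. The next genes outward, Rnf151, Hs3st6 and Meiob, averaged at most 3.27 normalised counts in any group.

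Of 6 neighbours of Rpl3 on chromosome 15, 1 changed in KO against WT at 6 months, beside 16.3% of all genes. Apobec3, a cytidine deaminase of antiviral defence 159562 bases away, rose by 0.75 on the log2 scale (limma adjusted p = 0.0210). Cbx7, a Polycomb chromobox protein 106637 bases away, rose in KO+AAV against KO by 0.64 on the log2 scale (limma adjusted p = 0.0134), 1 of the 6 beside 11.2% of all genes. The nearest, Syngr1, at 7927 bases, did not pass in any comparison (log2 -0.31, adjusted p = 0.116 in KO against WT).

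The genes whose pattern was most like that of each member were ranked by Pearson's r over the 14 libraries at 6 months, among 9102 genes. These libraries fall into 3 groups, so a second r after removal of the group means is given, and no p. The r at 6 weeks is over the 6 libraries of both genotypes without that removal, so differences between the genotypes enter it. Rpl3l was most like Dap3, a protein of the mitochondrial ribosome (r = 0.98, 0.74 after removal of group means), with Fahd2a (0.97 and 0.70), Prkab1, a subunit of AMP-activated kinase (0.97 and 0.74), and Ttll1, a tubulin polyglutamylase (0.97 and 0.79). Eci1, an isomerase of fatty acid oxidation, followed (0.97 and 0.82), then Ccbl1, Lrg1 and Mrpl38, another protein of the mitochondrial ribosome (0.96 and 0.75). Dap3 averaged 1527 in KO+AAV and 1056 in KO, against 1741 in WT. The most opposite genes were Igsf1 (r = -0.98, -0.88 after removal of group means), Nlrc3, Npr3, the natriuretic peptide clearance receptor, and Fat1. Npr3 averaged 405 in KO+AAV and 1713 in KO, against 238 in WT. Over the libraries at 6 weeks, r with Rpl3l was 0.52 (Mrpl38) to 0.97 (Ttll1) for the most like genes. For the most opposite it was 0.16 (Igsf1), -0.81 (Nlrc3), -0.51 (Npr3) and -0.46 (Fat1).

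Among the genes most like Rpl3 were Emilin1, a protein of elastic fibres (r = 0.94, 0.84 after removal of group means), Car8, Rsph3a, Tmem176b, Mgp, matrix Gla protein, Mfap4 and Iah1. Of these, Mgp averaged 2963 in KO+AAV and 5499 in KO, against 1582 in WT. The summed fibroblast markers were also highest in the KO libraries with most Rpl3, at 32243 in replicate 1 and 26470 in replicate 5. Among KO+AAV libraries, replicate 3 had the most Rpl3 (5108) with a sum of 16774, and replicate 1 the least (3532) with a sum of 17188. The part of fibroblast number in the Rpl3 level was not tested. Its most opposite genes were Cish, an inhibitor of cytokine signalling (r = -0.96, -0.90 after removal of group means), Lrrc4b, Efemp1 and Fah. At 6 weeks, r with Rpl3 was -0.40 (Car8) to 0.65 (Iah1) for the most like genes named here. For the most opposite it was 0.07 (Cish), -0.68 (Lrrc4b), 0.39 (Efemp1) and -0.37 (Fah).

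The log2 ratio of Rpl3l to Rpl3 was most like Prkab1 (r = 0.98, 0.82 after removal of group means), Bcat2, a mitochondrial transaminase of branched-chain amino acids (0.96 and 0.69), Fahd2a, Lrtm1, the potassium channel gene Kcnk3 (0.95 and 0.84), Eno3, Mdga1 and Sars2. Its most opposite genes were Pamr1 (-0.98 and -0.79), Mxra8, Nppa and Bgn. Nppa, the gene of atrial natriuretic peptide and a marker of ventricular stress, averaged 22166 in KO+AAV and 83351 in KO, against 7526 in WT (r = -0.97, -0.79 after removal of group means). At 6 weeks, r with the ratio was 0.01 (Mdga1) to 0.93 (Lrtm1) for the most like genes. For the most opposite it was -0.56 (Pamr1), 0.28 (Mxra8), -0.36 (Nppa) and -0.93 (Bgn).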

How the data were processed

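RNA of 20 mouse hearts was sequenced from stranded poly(A) libraries as 150 bp read pairs per the labels' protocols; the series text names DESeq2 for the authors' analysis. What the authors deposited is a signal, normalised counts that are never negative, in one table for each age with its own scaling; the build is mm10 per the submitters' processing notes. The sources used here do not give aligner, counter or annotation. Low values were whole multiples of 1 step (tolerance 0.1) for 43.7% to 93.0% of genes per library, so reads were not recovered, depth in reads is unknown and no counting intervals are given.

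Values were tested as log2(value + 1) with limma 3.58.1 in R 4.3.3 (moderated variances, mean-variance trend, two-sided), with Benjamini-Hochberg adjustment over all genes of at least 10 in 3 (6 weeks) or 4 (6 months) libraries at 0.05; at 6 months 1 model held the 3 groups. A fold is 2 to the power of the log2 difference and understates changes of low genes. Ratios used the values without a pseudocount, with 2 exceptions. Differences of the Rpl3l to Rpl3 ratio between groups of 1 age, outside the isoform pairs, used log2(value + 1) in the main setting. The likeness of other genes to the ratio also used log2(value + 1). The 6-week columns matched their group but no single sample. Words of 50 bases were compared over GENCODE M21 transcripts with Biopython 1.88; sequences are from GENCODE. The fit was tested on simulated data. Both genes, the lists, the isoform pairs and the rule for named genes were chosen with earlier results of these data known. Named were all members of short lists, up to 4 members of smallest p per longer list and comparison (up to 2 where none passed), 3 neighbours on each side, and the 8 most like and 4 most opposite genes with a mean of at least 100; not every one is printed. Alternatives changed the pseudocount, filter, trend, scaling, libraries, sex class, block and model.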

Additional observations from a re-analysis of the deposited data

Results flagged for a closer look

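In WT hearts at 6 months the Rpl3l to Rpl3 ratio of replicate 1 was 3.37, far above the other 4 libraries at 1.88 to 2.22, and the gap to its nearest neighbour was 0.771 of the group's range. Without that library the log2 difference of the ratio at 6 months was -2.56 in KO against WT and -1.01 in KO+AAV against WT, beside -2.70 and -1.15 with it. Among the marker genes, Tnni3, the cardiac troponin I, stood at 59649 normalised counts in KO replicate 1, apart from the other KO libraries at 6 months by 0.801 of the range. Tnni2, the fast skeletal troponin I, stood at 44.0 in WT replicate 5 at 6 months, apart by 0.867 of the range. Chance flags about 1 in 20 groups in this way.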

How the results depend on the processing

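All 235 recomputed values of the 12 differences in Rpl3l, Rpl3 and their ratio kept their direction and moved by less than the spread between replicates. Part of these values could not move. Leaving out a library outside a comparison keeps its difference as it was, and so does dividing the ratio by transcript length. The same holds for sex class as a covariate at 6 weeks and for the replicate block in KO against WT at 6 months. Over the alternatives the ratio ranged from -2.86 to -2.47 (KO against WT at 6 months), 1.32 to 1.78 (KO+AAV against KO), -1.32 to -0.92 (KO+AAV against WT) and -1.82 to -1.62 (KO against WT at 6 weeks). The number of genes called varied more. For KO against WT at 6 weeks, 78 genes became 12 without the mean-variance trend, 36 with libraries scaled to equal totals, 189 with sex class as a covariate and 7 to 154 with 1 library left out (49 without WT1, 8 without WT6, 135 without WT16, 154 without KO2, 10 without KO3 and 7 without KO4). For KO against WT at 6 months, 2189 became 1381 without KO replicates 1 and 5, and 1520 to 2323 with 1 library left out. For KO+AAV against KO, 1509 became 542 with sex class as a covariate, 332 among libraries with Y-linked expression alone, and 571 to 1816 with 1 left out (571 without KO+AAV replicate 1, 855 without KO replicate 5). For KO+AAV against WT, 178 became 36 with Y-linked expression alone, 102 with the 2 groups in a model of their own, and 108 to 472 with 1 left out (109, 115 and 472 without WT replicates 1, 2 and 5; 115 and 108 without KO+AAV replicates 1 and 3). Smaller fits hold fewer samples; the other causes were not tested. Equal totals moved the median of all genes by 0.16 on the log2 scale in KO against WT at 6 months and the split to 1775 higher and 653 lower, from 1091 and 1098; in KO+AAV against KO it was 521 and 1017, from 745 and 764; in KO+AAV against WT it was 158 and 82, from 82 and 96; at 6 weeks it was 27 and 9, from 50 and 28.

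At 6 months 7 of 13 like-numbered pairs of libraries correlated above 0.1 (range -0.391 to 0.253). Whether replicate numbers pair the libraries was not tested, and the main fits were unpaired. With the replicate number as a block the ratio differed by -2.70 (KO against WT), 1.46 (KO+AAV against KO) and -1.24 (KO+AAV against WT), with 2071, 1764 and 183 genes called. The large-subunit list then had 6 of 46 genes called in KO+AAV against KO, against 0 without the block, and the small-subunit list 5 of 32, against 1. No paired analysis was possible at 6 weeks because the columns carry no replicate number. Of 35 calls on genes of the lists, 11 were kept in every alternative and 24 were lost in at least 1. Count tests were not run, since the values are not counts.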
